A study of Homo sapiens with 12 samples.

Results

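A set of 10 genes of the transforming growth factor beta (TGF-beta) pathway was taken by symbol from the 58735 genes of the count table. They are the ligand genes TGFB1, TGFB2 and TGFB3, the latency protein gene LTBP1, the receptor genes TGFBR1, TGFBR2 and TGFBR3, the signal transducer SMAD3, and the inhibitors SMAD7 and SKIL. All 10 were found under these symbols, and all 10 passed the filter on low counts in every comparison.

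TGF-beta ligands are secreted in a latent form, bound to their own propeptide, and LTBP1 tethers that complex to the extracellular matrix. The released ligand binds the type II receptor TGFBR2, which activates the type I receptor TGFBR1. TGFBR1 then phosphorylates SMAD2 and SMAD3, which enter the nucleus with SMAD4. TGFBR3, or betaglycan, is a co-receptor that presents ligand to TGFBR2, and is known to matter most for TGF-beta 2. SMAD7 and SKIL (also called SnoN) restrain the signal, and both genes are themselves known targets of it. In the kidney the pathway is known for its part in fibrosis and in the response of tubule cells to injury.

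The cells were HK-2, an established and immortalized line of the human renal proximal tubule grown in medium with serum. The design has 12 samples in 4 groups of 3: a control group that received water, and 3 groups given a drug for 48 h. Iohexol, an iodinated contrast medium, was given at 75 mg I/mL. Cisplatin, a platinum drug used against tumors, was given at 5 μM, and vancomycin, a glycopeptide antibiotic, at 4 mM. The study asked what these nephrotoxic drugs share. The time at which the control group was collected is not given in the sources used here. The labels do not say whether the 3 samples of a group came from separate cultures, so the p-values measure the spread between these samples of 1 cell line, which may be technical.

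Total counts per sample were between 14057282 and 18177109, and each of the 10 genes had at least 22 counts in every sample. Levels are given as CPM, counts per 1000000 counts of a library after TMM normalization. Of 15 proximal tubule markers 2 were above 1 CPM in every sample (GGT1 and MIOX). The transporter gene SLC22A6 had 0 counts throughout, and LRP2 and HNF4A had at most 3 counts in any sample. Of 6 epithelial markers 5 were above 1 CPM in every sample, and none of the 5 endothelial or 6 leukocyte markers was. The summed level of 9 fibroblast and smooth muscle markers was 251 to 284 CPM in the vancomycin samples, and 117 to 130 CPM in the control, 108 to 117 CPM in the iohexol and 106 to 110 CPM in the cisplatin samples. Of these 9 markers 3 were above 1 CPM in every sample (LUM, COL1A1 and DCN). Mean levels in the control and vancomycin groups were 79.8 and 182 CPM for LUM, 30.6 and 41.8 CPM for COL1A1, and 12.3 and 30.5 CPM for DCN. PDGFRA and COL1A2, which also mark fibroblasts, had at most 4 and 5 counts in any sample. A lower level in bulk RNA can mean fewer cells with the transcript or less of it per cell, and these cannot be told apart.

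TGFB2, TGFB3 and LTBP1 had the largest changes against the control group, so the bases just before an annotated start of each are printed here, with those of TGFB1 for comparison. The sequences are those of RefSeq on GRCh38.p14, on the strand of the gene, and each is the 150 bases that end just before a start site. Capitals mark CACGTG, the E-box, in TGFB2 and TGFB3, and TGACGTCA, the cyclic AMP response element palindrome, in LTBP1. TGFB3 and LTBP1 have further annotated starts, not printed, and the bases before those hold neither string. TGFBR3, next in size of change (log2 fold change 1.91 with iohexol), is not printed, and the bases before its start hold neither string. The TGFB1 window, on the minus strand of chr19:41353923-41354072, has no capitals.
TGFB1: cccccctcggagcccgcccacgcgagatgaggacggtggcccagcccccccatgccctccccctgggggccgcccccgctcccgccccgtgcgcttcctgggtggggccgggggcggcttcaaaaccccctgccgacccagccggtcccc
TGFB2, plus strand of chr1:218345186-218345335: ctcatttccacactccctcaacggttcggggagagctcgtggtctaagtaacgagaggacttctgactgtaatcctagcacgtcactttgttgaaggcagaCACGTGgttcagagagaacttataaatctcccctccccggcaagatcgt
TGFB3, minus strand of chr14:75983012-75983161: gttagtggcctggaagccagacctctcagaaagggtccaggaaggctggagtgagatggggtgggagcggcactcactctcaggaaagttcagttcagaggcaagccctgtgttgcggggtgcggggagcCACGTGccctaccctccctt
LTBP1, plus strand of chr2:32946803-32946952: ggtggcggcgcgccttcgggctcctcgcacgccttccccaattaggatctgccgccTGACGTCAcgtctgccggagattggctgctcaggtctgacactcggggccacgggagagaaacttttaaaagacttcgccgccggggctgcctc

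All 10 genes had RefSeq promoter windows, 27 windows in all, each from 250 bases before to 50 bases after a start. They were searched on both strands for 4 motifs. The palindromic SMAD binding element GTCTAGAC and the CAGA box AGCCAGACA were in none of these windows, and over all 35116 windows of the same length they were in 0.202% and 0.288%. The AP-1 site TGAGTCA was in 2 of the 27 windows (of SMAD3 and TGFBR2) and in 4.95% of all windows. CACGTG was in 3 of the 27 (of TGFB2, TGFB3 and SMAD3) and in 7.26% of all. TGACGTCA was added after the sequences had been seen, and was in 2 of the 27 (of LTBP1 and SKIL) and in 1.85% of all windows. The motifs do not overlap each other in these windows. A match is a string of letters in the window and nothing more. The TGFB2 window lies over an exon of the antisense gene TGFB2-AS1 and its start lies 899 bases before the nearest start annotated by GENCODE.

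Compared per kilobase of gene length, TGFB1 and TGFB2 were the most abundant of these transcripts in the control group and TGFB3 was among the least. TGFB1 was at 57.2 ± 1.58 and TGFB2 at 56.8 ± 4.60 CPM per kb (SD, n = 3), and the samples of these 2 genes overlapped. Of the TGFB2 length, 26.6% is shared with TGFB2-OT1, where reads may be missing. Its level per kb and its rank may thus be too low in every group, which was not tested. SMAD3 followed at 41.6, TGFBR2 at 24.5, SKIL at 17.7, TGFBR1 at 14.5 and SMAD7 at 10.2 CPM per kb, where SKIL and TGFBR1 overlapped. LTBP1 was at 2.48 CPM per kb, and TGFBR3 at 0.501 and TGFB3 at 0.499, which did not differ beyond their spread. With vancomycin the order was another: TGFB1 stayed first at 67.8 CPM per kb, SKIL (22.3) and SMAD3 (22.1) overlapped behind it, and TGFB2 was sixth at 12.1 CPM per kb, overlapping TGFBR1 (12.7). With cisplatin, SMAD3 at 16.8 CPM per kb overlapped TGFBR2 at 16.5.

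**Figure D1:**
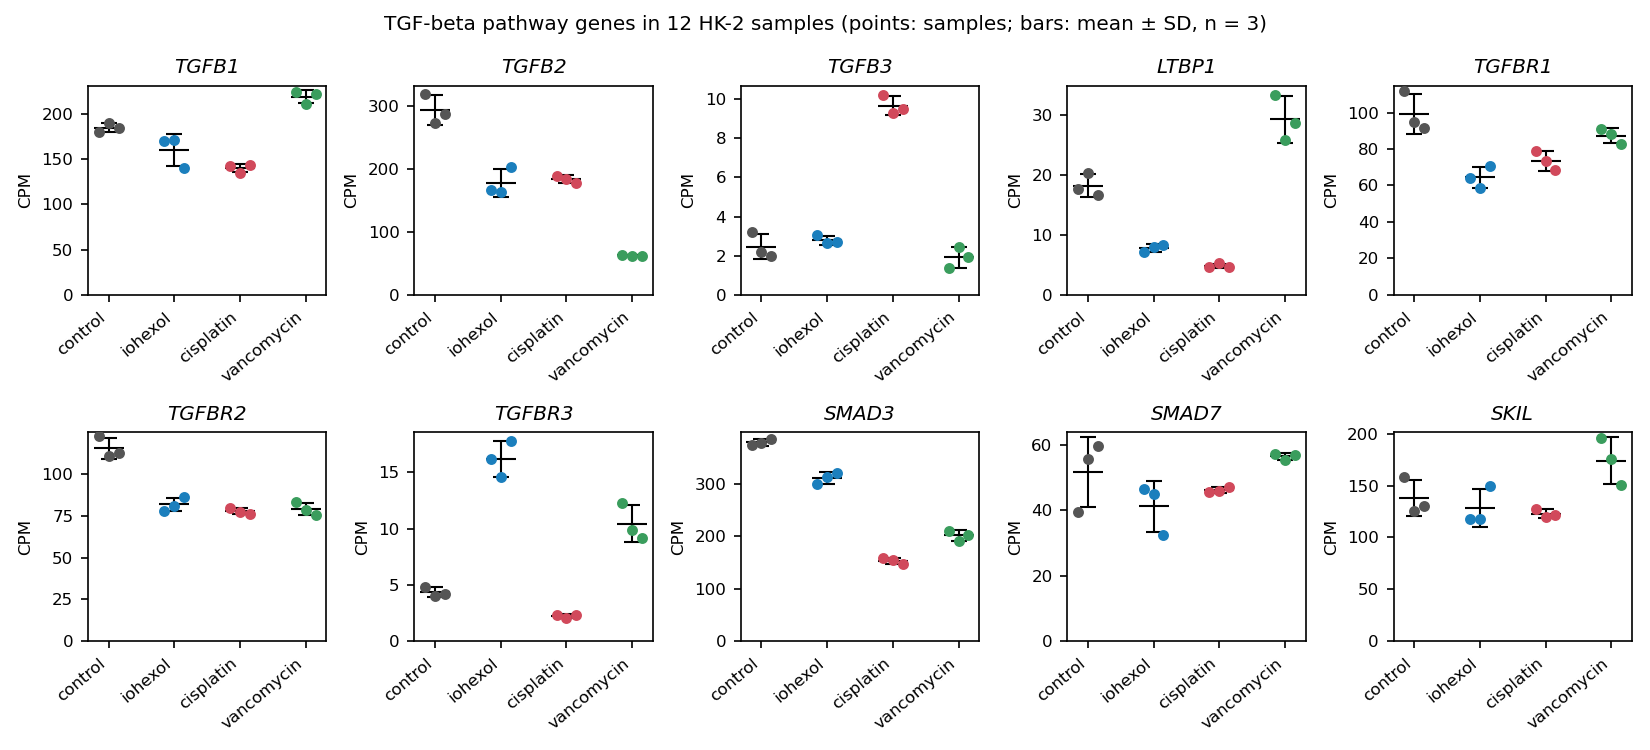
Level of each of the 10 genes in CPM (vertical axes, each from 0) in the 3 samples of each group (points), with the mean and SD (black bars, n = 3). TGFB2 in the vancomycin samples lies between 62.1 and 63.1 CPM, far under all other samples, and TGFB3 in the cisplatin samples between 9.29 and 10.2 CPM, above all others.

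Drug and control samples were compared by edgeR's quasi-likelihood test, with p-values adjusted by the Benjamini-Hochberg method over all genes tested. A gene is said to have risen or fallen where its adjusted p was under 0.05, and to be a DEG where its log2 fold change was also above 1 or below -1. With iohexol 6 of the 10 genes changed, 1 up and 5 down, beside 21.0% of the 15657 genes tested. With cisplatin 8 changed, 1 up and 7 down, beside 59.8% of 15876 genes. With vancomycin 8 changed, 4 up and 4 down, beside 57.9% of 15819 genes, and this number was 5 without vancomycin replicate 1 and 5 without control replicate 2. DEGs among these were LTBP1 and TGFBR3 with iohexol (2 genes, beside 5.28% of all), TGFB3, LTBP1 and SMAD3 with cisplatin (3 genes, beside 16.3%) and TGFB2 and TGFBR3 with vancomycin (2 genes, beside 18.5%). TGFB2, TGFBR1, TGFBR2 and SMAD3 fell with all 3 drugs. LTBP1, TGFBR3 and TGFB1 each rose with at least 1 drug and fell with another, TGFB3 and SKIL rose with 1 drug each, and SMAD7 passed the threshold with none. The calls of TGFBR1, TGFB1 and SKIL with vancomycin and of SMAD3 with iohexol were each lost under several other settings, given below. The 3 comparisons use the same 3 control samples. The samples of drug and control did not overlap for 7 of the 10 genes with iohexol (37.9% of all genes tested), 8 with cisplatin (65.1%) and 7 with vancomycin (63.2%).

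**Figure D2:**
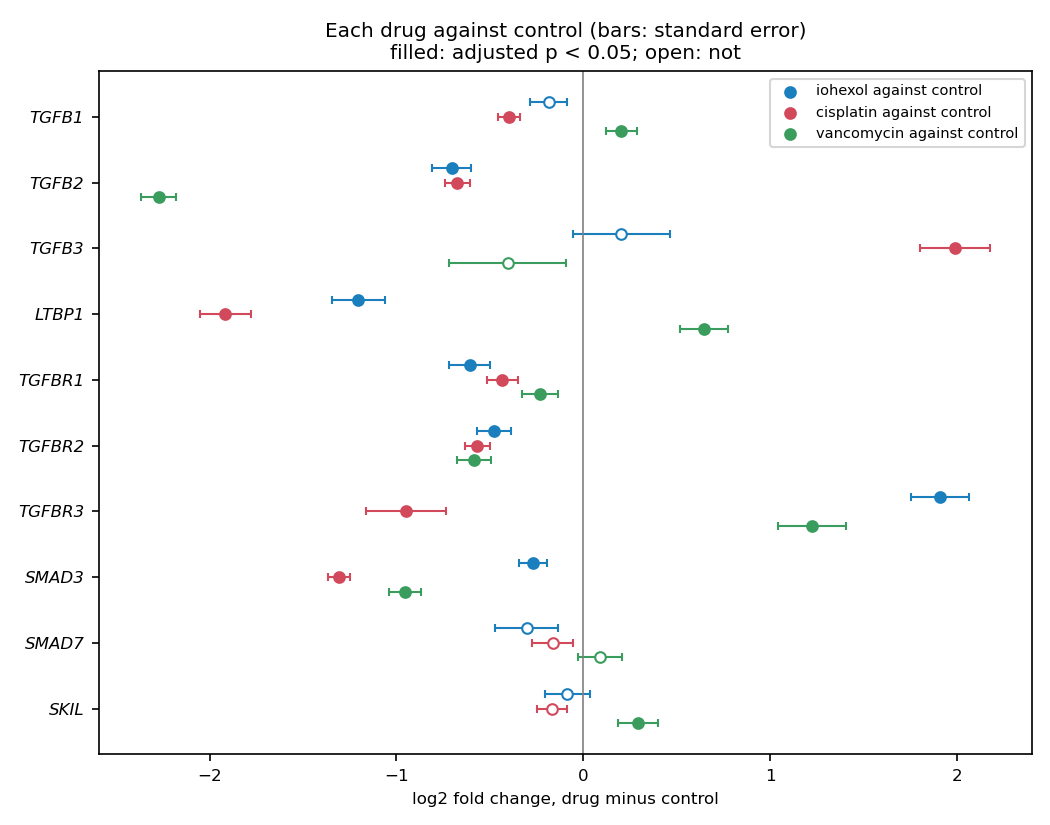
Log2 fold change of each gene, drug minus control (horizontal axis), with its standard error, for iohexol, cisplatin and vancomycin. Filled points had an adjusted p under 0.05: TGFB2 at -2.27 with vancomycin, TGFB3 at 1.99 with cisplatin and TGFBR3 at 1.91 with iohexol lie farthest out beside LTBP1 at -1.92 with cisplatin.

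TGFB2 encodes TGF-beta 2, the ligand with the largest loss. TGFB2 (ENSG00000092969) lies on chromosome 1 of GRCh38 from 218346235 to 218444619, on the plus strand. Its level was 319, 272 and 288 CPM in the control samples and 63.1, 62.1 and 62.1 CPM with vancomycin. It was 167, 163 and 203 CPM with iohexol and 189, 184 and 177 CPM with cisplatin. Every treated sample was below every control sample, and the 3 vancomycin samples were also below all other samples. With vancomycin TGFB2 was 4.83-fold lower than in the control group (log2 fold change -2.27, standard error 0.09, adjusted p = 1.19e-15). The log2 fold change was -0.70 with iohexol (standard error 0.10, adjusted p = 0.000576) and -0.67 with cisplatin (standard error 0.07, adjusted p = 1.34e-07). The annotated gene TGFB2-OT1 covers 26.6% of the exonic bases of TGFB2 on the same strand and had 0 counts in all samples. Reads from that stretch may be missing from the TGFB2 counts of every sample, which was not tested.

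TGFB1 encodes TGF-beta 1, the ligand most studied in fibrosis. TGFB1 (ENSG00000105329) is on chromosome 19 from 41301587 to 41353911, on the minus strand. Its level was 180, 191 and 185 CPM in the control samples, 142, 135 and 144 CPM with cisplatin, and 225, 211 and 222 CPM with vancomycin. The cisplatin samples were all below and the vancomycin samples all above the control samples. TGFB1 fell 1.32-fold with cisplatin (log2 fold change -0.40, standard error 0.06, adjusted p = 1.72e-05). With vancomycin it rose by 0.20 on the log2 scale (standard error 0.08, adjusted p = 0.0418). This last call was lost with library size as the only scaling (adjusted p = 0.195), without a filter (0.136) and on leaving out any of the 6 samples but vancomycin replicate 2 (0.0683 to 0.121). With iohexol the samples were at 170, 172 and 140 CPM, all below the control samples, and the log2 fold change of -0.19 had a 95% interval from -0.40 to 0.03 (adjusted p = 0.203). Of the exonic bases of TGFB1 6.64% also belong to HNRNPUL1 on the other strand, and the library kit did not keep the strand.

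TGFB3 encodes the third ligand isoform and had few counts. TGFB3 (ENSG00000119699) is on chromosome 14 from 75958099 to 75982991, on the minus strand. Its counts were 30 to 44 in the control, 40 to 44 in the iohexol and 22 to 36 in the vancomycin samples, and 151 to 169 in the cisplatin samples. In CPM the control samples were at 3.19, 2.20 and 1.97 and the cisplatin samples at 10.2, 9.29 and 9.51. The cisplatin samples stood apart from all 9 others. TGFB3 rose 3.96-fold with cisplatin (log2 fold change 1.99, standard error 0.19, adjusted p = 7.61e-08). Iohexol gave 0.20 on the log2 scale (95% interval -0.36 to 0.77, adjusted p = 0.629) and vancomycin -0.41 (95% interval -1.05 to 0.24, adjusted p = 0.278), with samples that overlapped the control group. These intervals are wide, and a change of the size seen for TGFB1 could not be told from none at this depth.

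The makeup of the ligand transcripts can be read per length. Of the summed CPM per kb of the 3 ligand genes, TGFB1 held 47.1% to 52.5% in the control samples and 83.9% to 84.7% in the vancomycin samples. The share of TGFB2 was 47.1% to 52.3% in the control samples and 14.9% to 15.5% with vancomycin. In the iohexol samples TGFB1 held 52.0% to 62.2% and in the cisplatin samples 52.6% to 55.0%. By this measure the ligand pool went from about equal parts of TGFB1 and TGFB2 to mostly TGFB1 in the vancomycin samples. The lengths include bases shared with other genes, 26.6% for TGFB2 and 6.64% for TGFB1. If reads there are missing, the TGFB2 share is too low in every sample, and the equal parts in the control group are not secure. TGFB3 reached 2.38% to 2.52% with cisplatin and was at most 0.724% in every other sample.

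**Figure D3:**
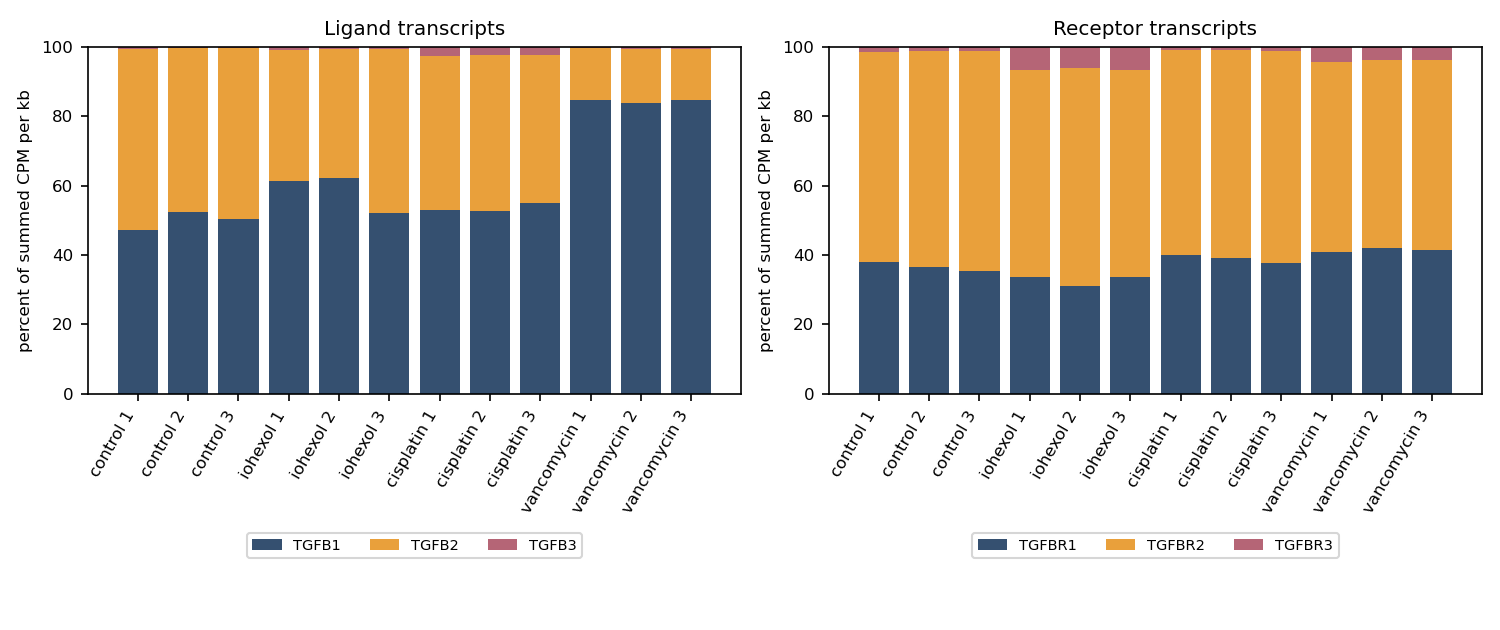
Share of each ligand gene (left) and receptor gene (right) in the summed CPM per kb of its class, in percent (vertical axes), for each of the 12 samples (bars). TGFB1 holds 83.9% to 84.7% of the ligand transcripts in the vancomycin samples, and TGFBR3 6.10% to 6.68% of the receptor transcripts in the iohexol samples.

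LTBP1, the gene of the protein that anchors latent TGF-beta in the matrix, moved opposite ways with different drugs. LTBP1 (ENSG00000049323) is on chromosome 2 from 32946972 to 33399509, on the plus strand. Its level was 17.6, 20.3 and 16.6 CPM in the control samples and 33.4, 25.7 and 28.6 CPM with vancomycin. It was 7.12, 7.93 and 8.28 CPM with iohexol and 4.60, 5.23 and 4.61 CPM with cisplatin. The 4 groups did not overlap. LTBP1 was a DEG with iohexol, 2.30-fold lower (log2 fold change -1.20, standard error 0.14, adjusted p = 0.000101), and with cisplatin, 3.77-fold lower (log2 fold change -1.92, standard error 0.14, adjusted p = 1.76e-09). With vancomycin it rose 1.56-fold (log2 fold change 0.64, standard error 0.13, adjusted p = 0.000139).

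The signalling receptors fell with each drug. TGFBR2 (ENSG00000163513), the type II receptor that binds ligand first, is on chromosome 3 from 30606502 to 30694142. Its level was 123, 111 and 113 CPM in the control samples, 78.1, 81.1 and 86.2 CPM with iohexol, 79.9, 77.5 and 76.1 CPM with cisplatin, and 83.1, 78.6 and 75.6 CPM with vancomycin. All 9 treated samples were below all 3 control samples, and the 3 drug groups overlapped each other. The log2 fold change was -0.48 with iohexol (standard error 0.09, adjusted p = 0.00289), -0.57 with cisplatin (0.07, adjusted p = 1.32e-06) and -0.59 with vancomycin (0.09, adjusted p = 6.36e-06).

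TGFBR1 (ENSG00000106799), the type I receptor kinase, is on chromosome 9 from 99104038 to 99154192. It was at 112, 94.7 and 91.4 CPM in the control samples, 64.0, 58.5 and 70.5 CPM with iohexol, 79.1, 73.4 and 68.2 CPM with cisplatin, and 90.7, 88.1 and 82.7 CPM with vancomycin. All treated samples were below the lowest control sample, and the highest vancomycin sample lay just under it. TGFBR1 fell by 0.61 on the log2 scale with iohexol (standard error 0.11, adjusted p = 0.0021) and by 0.43 with cisplatin (standard error 0.08, adjusted p = 0.000255). The fall by 0.23 with vancomycin (standard error 0.10, adjusted p = 0.0436) lay near the threshold. It was lost in the fit of all 12 samples (adjusted p = 0.0989), without a filter (0.0519), with a minimum of 10 counts in every sample (0.0554), and on leaving out any of the 6 samples but control replicate 3 (0.0501 to 0.199).

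TGFBR3 (ENSG00000069702), the co-receptor betaglycan, rose with iohexol and vancomycin, unlike both kinase receptors, and fell with cisplatin as they did. It is on chromosome 1 from 91680343 to 91906335, on the minus strand. The control samples were at 4.86, 4.02 and 4.21 CPM, the iohexol samples at 16.2, 14.6 and 17.8 CPM and the vancomycin samples at 12.3, 9.93 and 9.18 CPM. The cisplatin samples were at 2.36, 2.03 and 2.36 CPM, or 33 to 40 counts. No 2 of the 4 groups overlapped. TGFBR3 rose 3.75-fold with iohexol (log2 fold change 1.91, standard error 0.16, adjusted p = 5.37e-06) and 2.33-fold with vancomycin (1.22, standard error 0.18, adjusted p = 3.87e-06). With cisplatin it fell by 0.95 on the log2 scale (standard error 0.22, adjusted p = 0.00108). Its share of the receptor transcripts per kb was 6.10% to 6.68% with iohexol, 3.61% to 4.36% with vancomycin, 0.851% to 1.03% with cisplatin and 1.22% to 1.30% without a drug.

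SMAD3, the transcription factor that carries the signal from TGFBR1 to the nucleus, fell most with cisplatin after TMM normalization. SMAD3 (ENSG00000166949) is on chromosome 15 from 67063763 to 67195195. Its level was 373, 378 and 386 CPM in the control samples, 299, 312 and 321 CPM with iohexol, 158, 154 and 147 CPM with cisplatin, and 211, 190 and 203 CPM with vancomycin. In these levels, scaled by TMM, the 4 groups did not overlap. With cisplatin SMAD3 was a DEG, 2.48-fold lower (log2 fold change -1.31, standard error 0.06, adjusted p = 3.44e-12). With vancomycin it fell 1.94-fold (log2 fold change -0.95, standard error 0.08, adjusted p = 1.17e-09). The difference between cisplatin and vancomycin rests on the scaling: with library size only it was -0.06 (adjusted p = 0.461). The fall by 0.27 with iohexol (standard error 0.08, adjusted p = 0.0273) was lost with library size only (adjusted p = 0.087) and on leaving out any of the 6 samples but iohexol replicate 3 (0.0619 to 0.115).

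SMAD7, the inhibitory SMAD that blocks the type I receptor, passed the threshold with none of the drugs. SMAD7 (ENSG00000101665) is on chromosome 18 from 48919853 to 48952052. The control samples spread from 39.4 to 55.6 and 59.5 CPM. The iohexol samples were at 46.5, 44.8 and 32.3 CPM, the cisplatin samples at 45.4, 45.8 and 47.0 CPM and the vancomycin samples at 57.3, 55.2 and 56.9 CPM. All 3 drug groups overlapped the range of the control group, which 1 low control sample widened. The log2 fold changes were -0.30 with iohexol (95% interval -0.67 to 0.06), -0.16 with cisplatin (-0.40 to 0.07) and 0.09 with vancomycin (-0.16 to 0.34), with adjusted p from 0.212 to 0.544. Without control replicate 1 SMAD7 was lower with cisplatin (log2 fold change -0.32, adjusted p = 8.62e-05) and with iohexol (-0.47, adjusted p = 0.0471).

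SKIL, whose product represses SMAD complexes on DNA, had samples that overlapped the control group with every drug. SKIL (ENSG00000136603) is on chromosome 3 from 170357678 to 170396835. The control samples were at 158, 125 and 131 CPM and the vancomycin samples at 196, 176 and 150 CPM. Iohexol samples were at 118, 118 and 149 CPM and cisplatin samples at 127, 119 and 122 CPM. SKIL rose by 0.29 on the log2 scale with vancomycin (standard error 0.11, adjusted p = 0.0205). The call was lost with library size only (adjusted p = 0.0796), without vancomycin replicate 1 (0.13), without control replicate 2 (0.131) and without control replicate 3 (0.0872). The log2 fold change was -0.09 with iohexol (95% interval -0.35 to 0.17) and -0.17 with cisplatin (-0.34 to 0.00, adjusted p = 0.0815). Without control replicate 2 or 3 the cisplatin value passed the threshold, with adjusted p of 0.0249 and 0.0372.

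The drugs were also compared with each other, as contrasts in a fit of all 12 samples. Between iohexol and cisplatin 4 of the 10 genes differed, beside 54.0% of the 17073 genes tested. Between iohexol and vancomycin 8 differed (56.6% of all), and between cisplatin and vancomycin 8 (64.7% of all). The samples did not overlap for 4, 9 and 9 of the 10 genes, beside 60.9%, 59.4% and 71.2% of all genes tested.

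**Figure D4:**
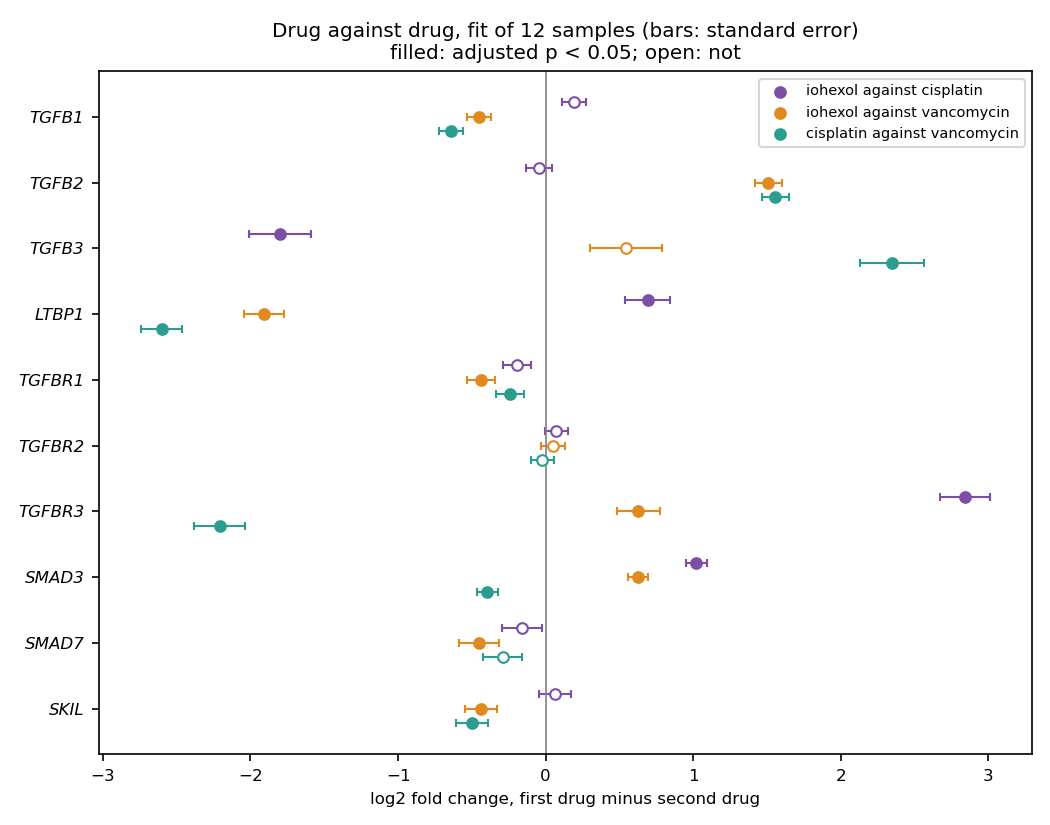
Log2 fold change of each gene between 2 drugs, first drug minus second (horizontal axis), with its standard error; filled points had an adjusted p under 0.05. TGFBR3 at 2.84 for iohexol against cisplatin and LTBP1 at -2.60 for cisplatin against vancomycin lie farthest from 0, and the 3 values of TGFBR2 lie between -0.02 and 0.07.

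Iohexol and cisplatin differed in TGFBR3, which was 7.15-fold higher with iohexol (log2 fold change 2.84, standard error 0.17, adjusted p = 2.86e-11). SMAD3 was 2.03-fold higher (1.02, standard error 0.07, adjusted p = 2.88e-10) and LTBP1 1.62-fold higher with iohexol (0.69, standard error 0.15, adjusted p = 0.000671). TGFB3 was 3.48-fold lower with iohexol than with cisplatin (adjusted p = 4.07e-07). TGFB2 did not differ past the threshold between these drugs (-0.05, 95% interval -0.23 to 0.13), and neither did TGFBR2 (0.07, -0.09 to 0.24). TGFB1 lay at the threshold (0.19, adjusted p = 0.0503), its samples in the 2 groups overlapped, and it passed without iohexol replicate 3 (adjusted p = 0.00179), as did the lower TGFBR1 (-0.26, adjusted p = 0.0283).

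Vancomycin stood apart from both other drugs in TGFB2, 2.85-fold higher with iohexol (adjusted p = 2.90e-11) and 2.94-fold higher with cisplatin than with vancomycin (adjusted p = 1.03e-11). TGFB1 was lower than with vancomycin, 1.37-fold with iohexol (adjusted p = 8.46e-05) and 1.56-fold with cisplatin (adjusted p = 7.83e-07). LTBP1 was 3.75-fold lower with iohexol and 6.06-fold lower with cisplatin than with vancomycin (adjusted p = 2.62e-10 and 3.15e-12). SKIL was lower than with vancomycin, at a log2 fold change of -0.44 with iohexol and -0.50 with cisplatin (adjusted p = 0.00206 and 0.000493), and both calls were lost with library size only (0.0756 and 0.184). TGFBR3 was 1.55-fold higher with iohexol than with vancomycin (adjusted p = 0.000877) and 4.63-fold lower with cisplatin (adjusted p = 8.98e-10). SMAD3 was 1.54-fold higher with iohexol than with vancomycin (adjusted p = 2.78e-07) and 1.31-fold lower with cisplatin (adjusted p = 6.38e-05), the latter lost with library size only (adjusted p = 0.461). TGFBR1 was lower than with vancomycin, by 0.44 with iohexol (log2 fold change -0.44, adjusted p = 0.000627) and by 0.24 with cisplatin (-0.24, adjusted p = 0.0301). The second of these took the other sign with library size only (0.09), and was lost with DESeq2 (adjusted p = 0.062) and without cisplatin replicate 2 or 3 or vancomycin replicate 1 or 2 (0.0652 to 0.137). SMAD7 was lower with iohexol than with vancomycin (-0.45, adjusted p = 0.00712), and this call too was lost with library size only (0.129). Between cisplatin and vancomycin its samples did not overlap, and the value of -0.29 (adjusted p = 0.0613) passed with no filter (0.0183) and in a fit of these 6 samples (0.00795) and took the other sign with library size only (0.04). TGFB3 was 5.09-fold higher with cisplatin than with vancomycin (adjusted p = 1.03e-08), and did not pass the threshold between iohexol and vancomycin (0.55, 95% interval 0.04 to 1.06, adjusted p = 0.0618). It passed without vancomycin replicate 2 (adjusted p = 0.026), with library size only (0.0111) and with a minimum of 10 counts in every sample (0.0472). For TGFBR2 the difference was 0.05 between iohexol and vancomycin (95% interval -0.11 to 0.21) and -0.02 between cisplatin and vancomycin (-0.19 to 0.14). With library size only the TGFBR2 difference between iohexol and vancomycin was 0.26 (adjusted p = 0.00806). The median over all genes moved by 0.207 under that scaling.

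The TMM factors differed between the groups, at 0.961 to 0.976 in the control, 1.02 to 1.04 in the iohexol, 1.12 to 1.13 in the cisplatin and 0.885 to 0.897 in the vancomycin samples. With library size as the only scaling the median over all genes moved on the log2 scale by 0.218 for cisplatin against control, by -0.127 for iohexol against cisplatin, by 0.207 for iohexol against vancomycin and by 0.335 for cisplatin against vancomycin. The cisplatin values of SMAD7 and SKIL against control were each 0.05 under that scaling, the opposite sign, and passed no threshold. TGFBR2 was higher with cisplatin than with vancomycin under it (log2 fold change 0.31, adjusted p = 0.00149), which is less than the shift of all genes.

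Other genes of the pathway were counted from lists written by role. The list of genes that TGF-beta induces in many cell types had 31 genes tested with iohexol, of which 3 rose and 17 fell, at a median log2 fold change of -0.64 (0.01 over all genes). With cisplatin 8 of 31 rose and 20 fell (median -0.47, 0.01 over all genes), and with vancomycin 19 of 32 rose and 6 fell (median 0.39, -0.01 over all genes). Over all genes tested 11.2% rose and 9.77% fell with iohexol, 29.2% and 30.6% with cisplatin and 29.0% and 28.8% with vancomycin. With library size only the counts were 3 up and 16 down, 8 up and 15 down, and 17 up and 8 down. The list thus leaned down with iohexol and cisplatin and up with vancomycin under both scalings. It was chosen with earlier results of these data known, so this lean is a description and not an independent test. The summed fibroblast and smooth muscle markers, which share COL1A1 with this list, were also highest in the vancomycin samples (251 to 284 CPM). Their part in the result was not tested.

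**Figure D5:**
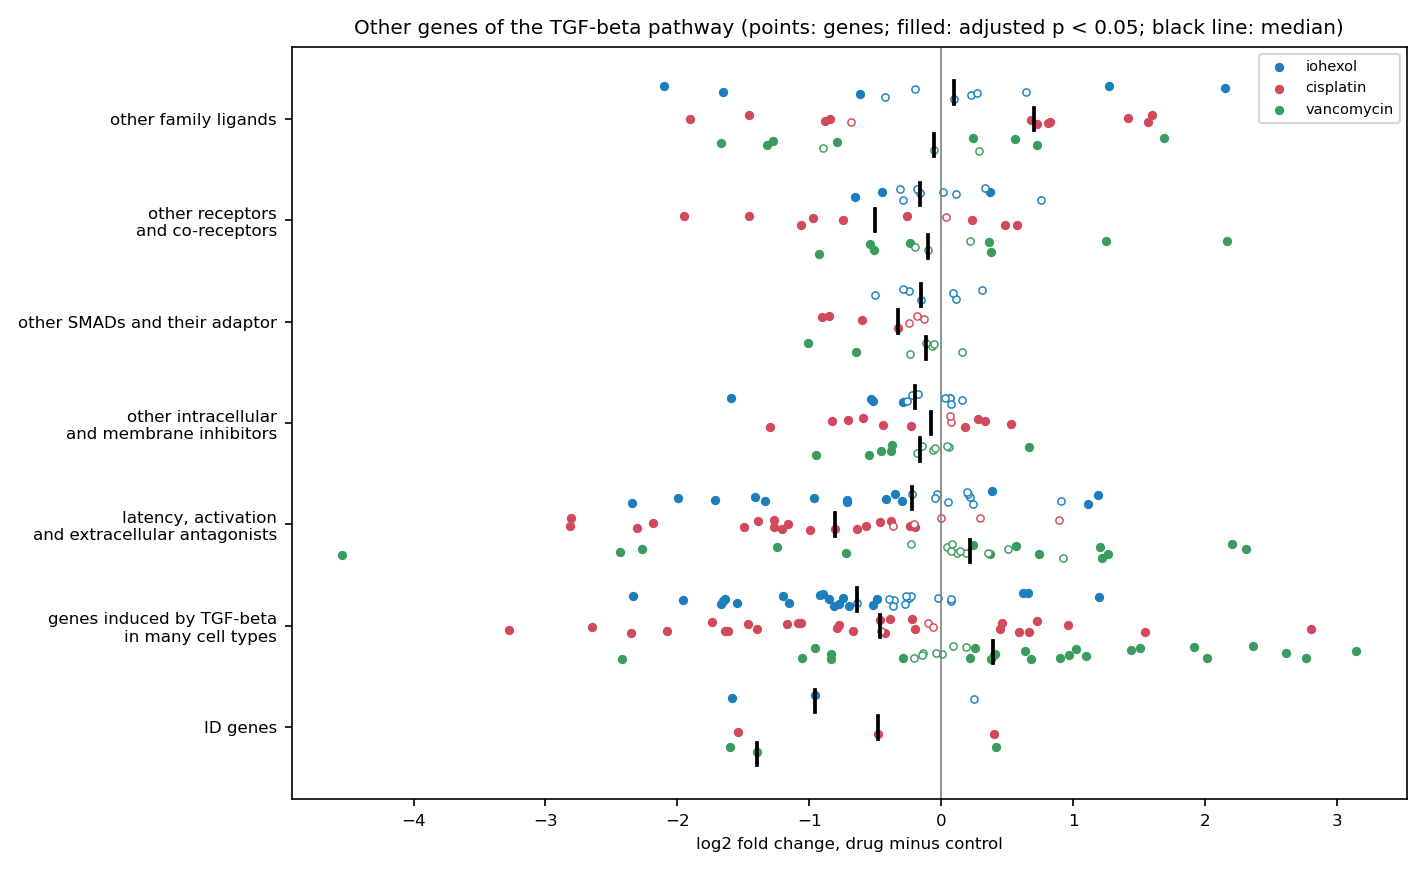
Log2 fold change, drug minus control (horizontal axis), of each other pathway gene (points) by list and drug, filled where the adjusted p was under 0.05, with the median of each list (black lines). The medians of the genes induced by TGF-beta were -0.64 with iohexol, -0.47 with cisplatin and 0.39 with vancomycin.

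Among these induced genes, TGFBI, a matrix protein named for its induction by TGF-beta, fell with iohexol from 1448 ± 9.55 to 368 ± 13.0 CPM (SD, n = 3; log2 fold change -1.96, adjusted p = 2.23e-08) and ADAM12, a metalloprotease, from 60.8 to 19.0 CPM (-1.65, adjusted p = 2.36e-06). TNC, the matrix protein tenascin C, rose with iohexol (1.20, adjusted p = 3.80e-06), as did NEDD9 (0.62, adjusted p = 0.000717) and CDKN1A (0.66, adjusted p = 0.00609).

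With cisplatin the falls with the smallest p were in FN1, which encodes fibronectin (-1.64, adjusted p = 1.15e-14), in the tropomyosin gene TPM1 (-1.74, adjusted p = 7.00e-14) and in LOXL2, a collagen cross-linking enzyme (-2.36, adjusted p = 7.00e-14). FN1 was at 21414 CPM in the control group and 6889 CPM with cisplatin. IL11, a cytokine of the IL-6 family, rose from 17.6 to 123 CPM (2.80, adjusted p = 1.70e-13). The cell cycle inhibitors CDKN1A (1.55, adjusted p = 1.35e-10) and CDKN2B (0.96, adjusted p = 1.99e-07) rose too.

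With vancomycin IL11 reached 161 ± 16.3 CPM (SD, n = 3; log2 fold change 3.15, adjusted p = 2.73e-16). CDKN1A rose from 45.5 to 288 CPM (2.62, adjusted p = 5.05e-16) and SNAI2, the transcription factor Slug, from 6.42 to 45.0 CPM (2.76, adjusted p = 8.01e-15). CCN2, a matricellular protein also called CTGF, fell from 349 to 67.3 CPM (-2.42, adjusted p = 1.69e-16). TPM1 (-1.06, adjusted p = 8.29e-11) and CDH2, N-cadherin, fell as well (-0.95, adjusted p = 1.11e-09). CDKN1A and CDKN2B are also regulated outside this pathway, CDKN1A by p53.

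Genes of latency, activation and extracellular antagonism fell more often than they rose with iohexol and with cisplatin. With iohexol 3 of 23 rose and 11 fell (median log2 fold change -0.22), with cisplatin 0 of 23 rose and 18 fell (-0.81; 2 rose and 15 fell with library size only, and 1 had a higher level at an unadjusted p under 0.05), and with vancomycin 9 of 24 rose and 5 fell (0.22; 8 rose and 6 fell with library size only). Over all genes 11.2% rose and 9.77% fell with iohexol, 29.2% and 30.6% with cisplatin, and 29.0% and 28.8% with vancomycin. THBS1, thrombospondin 1, an activator of latent TGF-beta, fell with all 3 drugs. It was at 1212 ± 28.7 CPM in the control group, 450 ± 30.3 with iohexol, 504 ± 17.7 with cisplatin and 53.6 ± 8.70 with vancomycin (SD, n = 3). The log2 fold change with vancomycin was -4.54 (standard error 0.11, adjusted p = 1.60e-19). ITGB8 and ITGB6, the beta chains of integrins that release TGF-beta from its latent complex, fell with cisplatin (-2.30 and -2.81, adjusted p = 9.83e-14 and 4.87e-12) and with vancomycin (-2.43 and -1.24, adjusted p = 3.54e-15 and 2.51e-09). LTBP2 and FBN1, matrix proteins of the fibrillin family, fell with iohexol (-1.71 and -1.33, adjusted p = 4.33e-07 and 2.34e-06). BGN, the proteoglycan biglycan, and the serine protease HTRA1 rose with iohexol (1.11 and 1.19) and with vancomycin (2.20 and 1.22). GREM1, the BMP antagonist gremlin, rose with vancomycin from 319 to 756 CPM (1.20, adjusted p = 1.05e-11), and the integrin chain ITGB3 rose with iohexol (0.39, adjusted p = 0.00438).

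Of the 7 other SMAD genes and their adaptor, none changed with iohexol, 4 fell with cisplatin and 2 fell with vancomycin. Beside these, 21.0% of all genes tested changed with iohexol, 59.8% with cisplatin and 57.9% with vancomycin. Falls alone made up 30.6% of all genes with cisplatin and 28.8% with vancomycin, the last near the count here. The count of 0 is from edgeR, and 4 of the 7 genes had an unadjusted p under 0.05 (SMAD4, SMAD5 and SMAD9 lower, ZFYVE9 higher). DESeq2 and limma-voom called 0 as well, library size only and no filter called 1 each, and the fit of all 12 samples and the fit without iohexol replicate 3 called 2 each. SMAD2, the other receptor-activated SMAD of this branch, fell with cisplatin from 66.2 to 43.6 CPM (-0.60, adjusted p = 8.11e-06), SMAD4, the shared partner, from 66.0 to 52.5 CPM (-0.33, adjusted p = 0.00194). SMAD9, of the BMP branch, was at -0.90 (adjusted p = 0.00501), and ZFYVE9, the adaptor SARA, at -0.85 (adjusted p = 2.86e-06). With vancomycin SMAD6, the inhibitory SMAD of the BMP branch, fell (-1.01, adjusted p = 1.19e-07) and so did SMAD5 (-0.64, adjusted p = 8.52e-06), while SMAD2 was at 0.16 (adjusted p = 0.17).

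Among 12 other intracellular and membrane inhibitors tested, 0 rose and 4 fell with iohexol (0 rises also at an unadjusted p under 0.05 in edgeR, and under every alternative, while the falls were 2 without iohexol replicate 1 and 2 without control replicate 2), 4 rose and 6 fell with cisplatin, and 1 rose and 5 fell with vancomycin. The shares of all genes were 11.2% up and 9.77% down with iohexol, 29.2% and 30.6% with cisplatin, and 29.0% and 28.8% with vancomycin. PMEPA1, a membrane protein that sequesters SMADs and is itself induced by TGF-beta, was at 253 ± 24.1 CPM in the control group, 82.7 ± 9.47 with iohexol, 103 ± 2.03 with cisplatin and 249 ± 7.78 with vancomycin (SD, n = 3). It fell with iohexol (-1.59, adjusted p = 1.66e-06) and cisplatin (-1.30, adjusted p = 4.37e-11), and gave -0.06 with vancomycin (adjusted p = 0.575). SKI, the close relative of SKIL, fell with cisplatin (-0.71, adjusted p = 5.20e-08) and vancomycin (-0.55, adjusted p = 2.02e-05). The ubiquitin ligase gene SMURF2 fell with iohexol (-0.52, adjusted p = 0.0078) and vancomycin (-0.95, adjusted p = 8.54e-08) and rose with cisplatin (0.33, adjusted p = 0.00158). BAMBI, a pseudoreceptor, rose with vancomycin (0.66, adjusted p = 1.22e-05).

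Other receptors of the family gave 1 rise and 2 falls of 11 with iohexol, beside 11.2% and 9.77% of all genes. They gave 3 rises and 6 falls of 10 with cisplatin (29.2% and 30.6% of all genes). With vancomycin there were 4 rises and 4 falls of 11 (29.0% and 28.8% of all genes). ENG, endoglin, a co-receptor related to TGFBR3, fell with iohexol (-0.65, adjusted p = 0.000861) and rose with vancomycin (0.36, adjusted p = 0.00298). The BMP receptor gene BMPR1A fell with cisplatin (-0.97, adjusted p = 6.24e-08) and vancomycin (-0.93, adjusted p = 6.98e-08). BMPR2 fell with iohexol (-0.45, adjusted p = 0.00816) and cisplatin (-1.06, adjusted p = 4.50e-09).

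Of the other family ligands, 2 of 11 rose and 3 fell with iohexol, beside 11.2% and 9.77% of all genes. With cisplatin 7 of 12 rose and 4 fell (29.2% and 30.6% of all genes), and with vancomycin 4 of 11 rose and 4 fell (29.0% and 28.8%). GDF15, a cytokine raised by many kinds of cell stress, rose with all 3 drugs, from 103 ± 6.16 CPM to 453 ± 64.1 with iohexol, 181 ± 4.84 with cisplatin and 343 ± 22.3 with vancomycin (SD, n = 3; adjusted p = 2.07e-07, 7.51e-09 and 1.09e-13). INHBA, which encodes the subunit of activin A, fell from 477 to 150 CPM with iohexol (-1.65, adjusted p = 1.06e-07) and to 259 CPM with cisplatin (-0.88, adjusted p = 2.36e-10). BMP2 fell with iohexol (-0.61, adjusted p = 0.00267) and rose with cisplatin (0.83, adjusted p = 1.58e-07) and vancomycin (0.73, adjusted p = 3.16e-06).

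The ID genes, targets of the BMP branch, gave 2 falls of 3 tested with each drug. Of all genes 9.77% fell with iohexol, 30.6% with cisplatin and 28.8% with vancomycin. ID1 was at 256 ± 3.28 CPM in the control group, 130 ± 7.14 with iohexol, 88.3 ± 4.53 with cisplatin and 87.3 ± 5.60 with vancomycin (SD, n = 3), with adjusted p of 9.02e-06, 1.31e-12 and 2.25e-13. ID3 fell with iohexol (-1.59, adjusted p = 1.23e-06) and cisplatin (-0.48, adjusted p = 4.64e-05) and rose with vancomycin (0.41, adjusted p = 0.000788). ID2 rose with cisplatin (0.40, adjusted p = 0.000336) and fell with vancomycin (-1.40, adjusted p = 2.62e-10).

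The genes whose pattern was most like each of the 10 were found by Pearson's r of log2 CPM over the 12 samples, which fall into the 4 treatment groups and share their libraries. For TGFB2 these were RELL1 (r = 0.995), THBS1 (0.994) and SLC26A2 (0.993), and the most opposite was HIST1H2BK (-0.994). LTBP1 was most like VEGFC (0.992), CA12 (0.991) and ADAM12 (0.987). TGFB3 was most like ISCA1 (0.978) and most opposite to ANKRD11 (-0.993). TGFBR3 was most like LITAF (0.991) and most opposite to TGM2 (-0.990), the gene of transglutaminase 2. THBS1 and ADAM12 are among the pathway genes listed above. TGFB2 and LTBP1 thus each had a listed pathway gene among its 3 nearest, and the rest of the 10 genes had none.

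TGFB1 was most like NCS1 (0.985), TMEM214 (0.982) and TAPBP (0.981). TGFBR2 was most like CDK6 (0.985) and SMAD3 most like BICC1 (0.990), SLCO4C1 (0.989) and MYLK (0.986). TGFBR1 (GTF3A, 0.953), SMAD7 (CEP170B, 0.959) and SKIL (IL6ST, 0.937) had lower values of r to their nearest genes. These correlations are given as a description, with no test.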

How the data were processed

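RNA of 12 HK-2 samples, 3 each of the control, iohexol, cisplatin and vancomycin groups, was sequenced at Novogene from poly(A)-selected libraries made with a kit that does not keep the strand. The authors deposited counts of reads per gene for 58735 genes, as whole numbers without normalization. The submitters' processing notes name CASAVA 1.8, fastp, HISAT2 2.0.5, featureCounts 1.5.0-p3 and DESeq2 1.20.0, with no role stated. The annotation release and the strand setting of the counting are not given in the sources used here, and gene positions are those of the deposited table, on GRCh38. Gene lengths, in bases, were taken from the deposited table. Reads were counted per gene, so isoforms are not told apart. Samples were grouped by their labels, and no column was left unused.

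From the deposited counts, each comparison was fitted in edgeR 4.0.16 under R 4.3.3 (TMM, filterByExpr with a minimum count of 10 and a minimum total of 15, estimateDisp, glmQLFit, glmQLFTest), in a fit of 6 samples for each drug against control and a fit of 12 samples for drug against drug. P-values were adjusted over all genes tested by the Benjamini-Hochberg method at 0.05. The standard error is the size of the log2 fold change divided by the square root of F. CPM are counts over the library total scaled by its TMM factor over the 12 samples, and log2 CPM a prior count of 2. Total counts were 14057282 to 18177109. No molecular identifiers are described, so counts are reads and not molecules. Any 2 samples of a group differed by 2.28 to 15.5 in chi-square per degree of freedom, so none was a copy of another. In simulated counts for iohexol against control, 200 of 200 changed genes were recovered, with 11 others called among 15636. How recovery depends on the size of a change or on the spread between samples was not tested.

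The 10 genes, the pathway lists and the marker lists were chosen with earlier results of these data known. Other pathway genes named are, per list and drug, up to 3 that rose and 3 that fell with the smallest p among those with an adjusted p under 0.05, and the like genes are the 3 with the highest and the 3 with the lowest r. SMAD genes beyond these, and second values of a named gene with another drug, were added after their values had been seen. Not all genes the rule covers are printed. Overlaps between genes were counted on GENCODE release 29, and promoter windows came from RefSeq on GRCh38.p14. Alternatives were RLE factors or library size only, no filter or 10 counts in every sample, DESeq2 1.42.0, limma-voom (limma 3.58.1), the replicate number as a block, another set of samples in the fit, and leaving out each sample. Figures were drawn with matplotlib 3.10.9.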

Additional observations from a re-analysis of the deposited data

How the results depend on the processing

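Of 840 log2 fold changes of the 10 genes under the alternatives, 772 kept their direction and their side of the threshold, 36 lost the call, 17 gained it and 15 changed sign. The call of TGFB2, LTBP1, TGFBR2 and TGFBR3 against control was kept with each drug under every alternative run. The number of the 10 genes changed with vancomycin fell from 8 to 5 without vancomycin replicate 1 and to 5 without control replicate 2. Leaving out 1 sample gave 5 to 6 changed genes with iohexol, 8 to 9 with cisplatin, 5 to 7 with vancomycin, 4 to 6 for iohexol against cisplatin, 8 to 9 for iohexol against vancomycin and 7 to 8 for cisplatin against vancomycin. None of the causes was tested beyond what each alternative changes.

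These values changed sign. With library size only they were 0.0536 for SMAD7 and 0.0518 for SKIL with cisplatin against control, -0.0560 for TGFBR2 and -0.0650 for SKIL with iohexol against cisplatin, and 0.312 for TGFBR2, 0.0915 for TGFBR1 and 0.0429 for SMAD7 with cisplatin against vancomycin. For cisplatin against vancomycin TGFBR2 was also at 0.0109 with RLE factors, 0.0109 with DESeq2, 0.0309 in a fit of these 6 samples and -0.0603 to 0.00879 when 1 sample was left out, above 0 without vancomycin replicate 1. Leaving out 1 sample also turned the sign of SKIL with iohexol against control (range -0.203 to 0.0228, above 0 without control replicate 1) and of SMAD7 with vancomycin (-0.0701 to 0.195, below 0 without control replicate 1). For iohexol against cisplatin it turned TGFB2 (-0.152 to 0.0137, above 0 without iohexol replicate 2) and SKIL (-0.0543 to 0.123, below 0 without iohexol replicate 3). Of these, TGFBR2 with library size only passed the threshold.

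The replicate numbers of the labels gave no sign of pairing: same-numbered samples of different groups had a mean correlation of deviations of -0.0209 (range -0.184 to 0.103), against 0.0106 for other pairs. These means are tied to each other, since the deviations are taken from the mean of each group. Single pairs with unlike numbers reached 0.294 (control 1 and iohexol 3) and 0.157 (control 3 and iohexol 2), so some samples may share a batch that the numbers do not give, which was not tested. With the replicate number as a block, 5 of the 10 genes changed with iohexol, 9 with cisplatin, 8 with vancomycin, 4 for iohexol against cisplatin, 8 for iohexol against vancomycin and 8 for cisplatin against vancomycin. SMAD3 with iohexol was lost under it (adjusted p = 0.122) and SKIL with cisplatin gained (adjusted p = 0.0343). Over all genes the block left 2096 of 15657 genes called with iohexol (13.4%), against 3283 without it.

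Depth limited TGFB3 most, with 22 to 44 counts in all samples but those with cisplatin.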
